A study of Mus musculus with 8 samples.

Results

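The transcription factors that set and maintain photoreceptor fate were examined in RNA sequencing data of mouse retina. The set holds 10 genes, Otx2, Crx, Neurod1, Rorb, Nrl, Nr2e3, Esrrb, Mef2d, Thrb and Rxrg, chosen by name, out of 26824 genes in the count table. All 10 were in the table and all 10 passed the filter on low counts. The libraries come from untreated mice aged 1 month, 3 labelled WT and 5 labelled Kv8.2 KO, with the 2 retinas of a mouse pooled in each. They are numbered WT 1 to WT 3 and KO 2 to KO 6. Kv8.2, encoded by Kcnv2, is a potassium channel subunit of photoreceptors that is silent alone and modifies the channels it joins. Strain, sex, the knockout allele and whether the animals were littermates are not given in the sources used here. The series text says that the authors tested 3 WT against 3 KO samples after setting 2 KO samples aside. It does not name those 2, and all 8 libraries were used here. The comparison asks whether the transcripts of these regulators differ in retinas labelled as lacking Kv8.2.

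Photoreceptors arise from retinal progenitors that switch on the homeobox factor OTX2, which activates its relative CRX, and CRX then drives most photoreceptor genes. A precursor becomes a rod where RORB induces NRL and NRL induces NR2E3. NR2E3 adds to the activation of rod genes and silences cone genes. Without NRL the precursor becomes a cone of the short-wavelength type, and the thyroid hormone receptor encoded by Thrb together with RXRG sets the type of cone opsin. In the mature retina the same proteins stay on and keep the photoreceptor genes active, with NEUROD1, MEF2D and the orphan receptor ESRRB adding to the upkeep of rods and cones.

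These factors are known to act on each other's genes, so the DNA upstream of their start sites was searched for their motifs. The 250 bases before the start are printed for Crx, Nrl and Esrrb, because Nrl and Esrrb are the members whose groups did not overlap and Crx is the general activator. They come from RefSeq for build GRCm38.p6, 5′ to 3′ on the strand of the gene. Capitals mark 4 motifs searched on both strands, which are TAATCC, the core bound by CRX and OTX2, TGCTGA, the core of the NRL element, AGGTCA, the half-site of nuclear receptors, and CAGATG, an E-box of NEUROD1. On the opposite strand these read GGATTA for the first, TCAGCA for the second, TGACCT for the half-site and CATCTG for the E-box. None of these motifs is part of another.
Crx, chr7:15879956-15880205, minus strand: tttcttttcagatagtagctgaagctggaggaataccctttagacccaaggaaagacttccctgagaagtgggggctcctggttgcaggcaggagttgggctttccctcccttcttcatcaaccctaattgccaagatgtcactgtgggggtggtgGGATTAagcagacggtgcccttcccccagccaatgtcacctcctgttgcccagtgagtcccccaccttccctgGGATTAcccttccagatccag
Nrl, chr14:55524253-55524502, minus strand: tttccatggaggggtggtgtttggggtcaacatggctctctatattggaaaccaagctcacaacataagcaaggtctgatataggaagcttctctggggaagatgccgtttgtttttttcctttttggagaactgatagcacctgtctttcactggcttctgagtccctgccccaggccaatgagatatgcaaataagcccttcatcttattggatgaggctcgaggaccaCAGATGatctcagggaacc
Esrrb, first start, chr12:86360867-86361116, plus strand: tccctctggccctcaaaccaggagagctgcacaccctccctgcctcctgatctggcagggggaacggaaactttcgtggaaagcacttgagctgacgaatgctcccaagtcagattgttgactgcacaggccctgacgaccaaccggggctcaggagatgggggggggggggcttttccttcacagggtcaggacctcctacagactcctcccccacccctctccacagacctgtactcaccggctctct
Esrrb, second start, chr12:86421394-86421643, plus strand: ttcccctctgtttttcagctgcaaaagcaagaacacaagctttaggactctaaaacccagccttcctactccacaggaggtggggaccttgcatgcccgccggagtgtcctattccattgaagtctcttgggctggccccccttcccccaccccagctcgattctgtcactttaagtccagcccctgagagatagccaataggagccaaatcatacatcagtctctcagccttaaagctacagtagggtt
Crx carried GGATTA 94 and 21 bases before its start, counted to the first base of the match. Nrl carried CAGATG 19 bases before its start, and neither window of Esrrb held any of the 4 motifs. RefSeq gave 17 windows for the 10 members. Among the genes, 3 of the 10 members held the CRX and OTX2 core (Crx, Otx2 and Thrb), against 7.21% of all 27025 genes with a window. The NRL core occurred in 4 members, Otx2, Neurod1, Rorb and Mef2d, against 18% of all genes. In Neurod1 it stood in tandem, 50 and 44 bases before the start. The half-site occurred in Thrb and Rxrg (15.8% of all genes) and the E-box in Otx2 and Nrl (16.3%). Members have more windows per gene than all genes do. Per window, the CRX and OTX2 core was in 3 of 17 against 6.25% of all 32851 windows, the NRL core in 4 of 17 against 16.1%, and the half-site and the E-box each in 2 of 17 against 14% and 14.4%, so these last motifs were no more frequent in members than in all windows. The 12 genes of a rod list with a window, described below, held the CRX and OTX2 core in 5 cases, the NRL core in 3, the half-site in 4 and the E-box in 0. The 10 genes of a cone list held them in 3, 1, 2 and 3 cases. A match of letters is a description and not a shown binding site.

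Depth was 17759146 to 25188870 counts per library, and the lowest member, Rxrg, had 103 to 192 counts. Kcnv2 itself was at 519, 551 and 526 CPM in WT and at 585, 447, 398, 409 and 409 CPM in KO 2 to KO 6 (log2 fold change -0.24, edgeR adjusted p 0.275). The groups overlapped, so its gene-level count does not check the labels, and directions below are those of libraries labelled KO against libraries labelled WT. CPM stands for counts per 1000000 counts in the library, scaled by TMM. KO 4, KO 5 and KO 6 stood apart from the other 5 libraries on the first principal component, which held 39.5% of the variance. Mitochondrial genes took 3.03% to 3.70% of counts in KO 4 to KO 6, 5.23% and 6.52% in KO 3 and KO 2, and 7.09% to 7.92% in WT. Lens genes took 5.00% of the counts of KO 3 and at most 0.170% of those of any other library. Each member is therefore also given for KO 2 and KO 3 against WT and for KO 4 to KO 6 against WT. These comparisons share the WT libraries, and KO 4 to KO 6 hold no WT library of their own, so that within them genotype and any shared handling cannot be told apart. Fold changes also ran with the GC content of transcripts, with a Spearman correlation of 0.459 across 18028 genes, which are not independent replicates, and values after a correction for GC content are given where they change the call of a member or of a named gene of the lists.

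Otx2, which commits progenitors to the photoreceptor lineage and persists in photoreceptors, bipolar cells and pigment epithelium, was level between the groups. It was at 172, 188 and 178 CPM in WT 1 to WT 3 and at 203, 157, 183, 183 and 193 CPM in KO 2 to KO 6. The 2 extremes were both libraries labelled KO, and the groups overlapped. The log2 fold change was 0.04 (SE 0.10, 95% interval -0.18 to 0.26), with an edgeR adjusted p of 0.849. It was 0.01 for KO 2 and KO 3 against WT and 0.07 for KO 4 to KO 6 (edgeR adjusted p 0.986 and 0.366). The gene lies at chr14:48657677-48673819 in build GRCm38, and 3.98% of its exon bases are shared with other genes, the antisense Otx2os1 among them, whose reads cannot be told apart without strand.

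Crx, the homeobox activator of rod and cone genes, was at 1038, 1130 and 1019 CPM in WT and at 1163, 936, 883, 901 and 913 CPM in KO 2 to KO 6. KO 2 was highest and the other 4 libraries labelled KO were below every WT library. Over all libraries the log2 fold change was -0.15 (SE 0.12, 95% interval -0.41 to 0.11), with an edgeR adjusted p of 0.442. It was -0.02 for KO 2 and KO 3 against WT (edgeR adjusted p 0.969) and -0.23 for KO 4 to KO 6 against WT (edgeR adjusted p 0.00815).

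Neurod1, a basic helix-loop-helix factor needed for photoreceptor survival, had the tightest WT levels of the set, with 414, 427 and 416 CPM. KO 2 and KO 3 lay among them with 421 CPM each, and KO 4, KO 5 and KO 6 lay below with 375, 366 and 381 CPM. The log2 fold change over all libraries was -0.09 (SE 0.10, edgeR adjusted p 0.562). It was 0.01 for KO 2 and KO 3 and -0.15 for KO 4 to KO 6 (edgeR adjusted p 0.0298). Its transcript has a low GC content, 43.6%, and after the GC correction the sign turned, to 0.07 over all libraries (edgeR adjusted p 0.627). Overlapping genes share 13.0% of its exon bases, so its counts are less certain than those of most members.

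**Figure D1:**
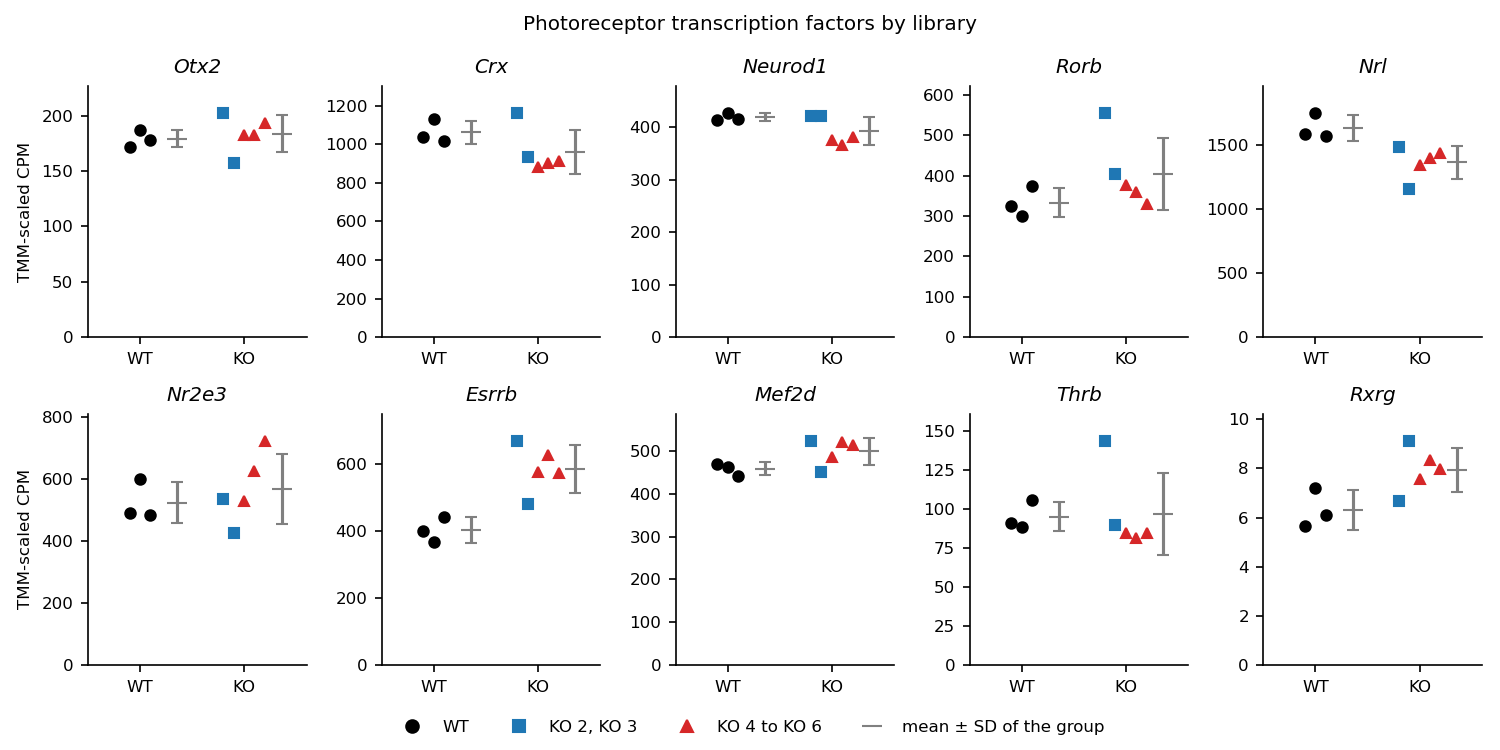
TMM-scaled CPM (vertical axes, from 0) of the 10 genes in each WT library (black circles), KO 2 and KO 3 (blue squares) and KO 4 to KO 6 (red triangles), with the mean ± SD of each group in gray. Esrrb is at 481 to 671 CPM in all libraries labelled KO against 368 to 443 CPM in WT, and Nrl at 1159 to 1486 CPM against 1571 to 1754 CPM.

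Rorb, the nuclear receptor upstream of Nrl in the rod pathway, was at 325, 301 and 373 CPM in WT and at 555, 405, 376, 359 and 329 CPM in KO 2 to KO 6. KO 2, KO 3 and KO 4 were above every WT library and KO 5 and KO 6 were within the WT range. The log2 fold change was 0.28 (SE 0.17, 95% interval -0.09 to 0.65), with an edgeR adjusted p of 0.306. It was 0.53 for KO 2 and KO 3 against WT (edgeR adjusted p 0.160) and 0.10 for KO 4 to KO 6 (edgeR adjusted p 0.341). Rorb has the lowest GC content of the set, 41.6%. After the GC correction its log2 fold change was 0.49 and passed the test (edgeR adjusted p 0.0493), and it was then 0.60 for KO 2 and KO 3 (edgeR adjusted p 0.144) and 0.42 for KO 4 to KO 6 (edgeR adjusted p 0.00124).

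Nrl, the leucine zipper factor that makes a precursor a rod, had the highest CPM of the members. It was at 1587, 1754 and 1571 CPM in WT 1 to WT 3 and at 1486, 1159, 1349, 1405 and 1437 CPM in KO 2 to KO 6. Every library labelled KO lay below every WT library, and KO 3, the library with lens transcripts, was the lowest. Means were 1637 ± 101 CPM for WT (SD, n = 3) against 1367 ± 127 CPM for KO labels (SD, n = 5). On the log2 scale the fold change was -0.26 (SE 0.11, 95% interval -0.50 to -0.02), and the edgeR adjusted p of 0.153 did not pass the threshold of 0.05. Without KO 3 it was -0.20 (edgeR adjusted p 0.122). It was -0.31 for KO 2 and KO 3 against WT (edgeR adjusted p 0.355) and -0.22 for KO 4 to KO 6 (edgeR adjusted p 0.0153). With the GC correction, the log2 fold change over all libraries was -0.36 (SE 0.09) and passed the test, with an edgeR adjusted p of 0.0405. In bulk retina, fewer rods and less transcript per rod cannot be told apart. The summed level of the 20 genes of the rod list was 63961 to 69345 CPM in WT and 56725 to 82637 CPM in the libraries labelled KO, so the groups overlapped in it.

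Nr2e3, the orphan receptor that NRL induces and that represses cone genes in rods, was below every WT library only in KO 3, unlike Nrl. It was at 489, 599 and 483 CPM in WT and at 537, 424, 529, 625 and 724 CPM in KO 2 to KO 6. The groups overlapped, with the lowest level in KO 3 and the highest in KO 6. The log2 fold change was 0.12 (SE 0.17, 95% interval -0.25 to 0.48), with an edgeR adjusted p of 0.691. It was -0.12 for KO 2 and KO 3 and 0.27 for KO 4 to KO 6 (edgeR adjusted p 0.713 and 0.0627), and -0.05 over all libraries after the GC correction.

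Esrrb, an estrogen-related orphan receptor that supports rod survival, rose in the libraries labelled KO. It was at 400, 368 and 443 CPM in WT 1 to WT 3 and at 671, 481, 576, 626 and 573 CPM in KO 2 to KO 6. The lowest library labelled KO, KO 3, was above the highest WT library. Means were 404 ± 37.6 CPM for WT (SD, n = 3) against 586 ± 70.8 CPM for KO labels (SD, n = 5). This is a log2 fold change of 0.54 (SE 0.13), or 1.45-fold with a 95% interval of 1.19 to 1.76, and the edgeR adjusted p was 0.0351. Esrrb was the only member called over all libraries. Among all 20167 tested genes 7.58% were called, 4.74% higher and 2.84% lower, so 1 of 10 is near the background. The size of the difference was alike in the KO subsets, 0.51 for KO 2 and KO 3 against WT (edgeR adjusted p 0.170) and 0.56 for KO 4 to KO 6 against WT (edgeR adjusted p 5.99e-05). In KO 2 and KO 3 against WT 0.891% of all genes were called and none of the members. The smallest edgeR p of the 10 members there were 0.0112 for Rorb and 0.0138 for Esrrb before adjustment, and 0.160 and 0.170 after it. In KO 4 to KO 6 against WT 42.8% of all genes were called (22.3% higher, 20.5% lower), and 5 of the 10 members, which were Crx, Neurod1 and Nrl lower and Esrrb and Mef2d higher. With the GC correction in that comparison, 31.9% of genes and 4 members were called, Crx and Nrl lower and Rorb and Esrrb higher. Neurod1 (0.07, edgeR adjusted p 0.261) and Mef2d (-0.12, edgeR adjusted p 0.0783) then lost their calls and turned their sign. DESeq2, which called 18.2% of genes, called Esrrb alone among the members over all libraries (log2 fold change 0.55, DESeq2 adjusted p 0.000441).

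The call of Esrrb changed with the libraries used and with the GC correction. It was lost when any 1 of WT 1, WT 2, WT 3, KO 4, KO 5 or KO 6 was left out. The call stayed without KO 2 (edgeR adjusted p 0.0298) or KO 3 (edgeR adjusted p 0.00313). Over all 8 such fits the log2 fold change was 0.48 to 0.61. With all libraries 1529 genes were called, and 2781 without KO 2 and 3992 without KO 3. The fits that lost the call had 132 to 531 called genes, so calls became fewer among all genes there and not only for Esrrb. The GC content of its transcript is 54.9%, among the highest of the set, and after the GC correction the log2 fold change was 0.36 (SE 0.12, edgeR adjusted p 0.0886). The corrected value was 0.46 for KO 2 and KO 3 against WT (edgeR adjusted p 0.188) and 0.30 for KO 4 to KO 6 (edgeR adjusted p 0.00545). Over all libraries with the correction, 7.03% of genes were called (4.24% higher, 2.80% lower) and 2 members, Nrl lower and Rorb higher. Esrrb overlaps no other gene and shares 0.033% of its 31-base words with other genes, so its counts are not split with a near copy.

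**Figure D2:**
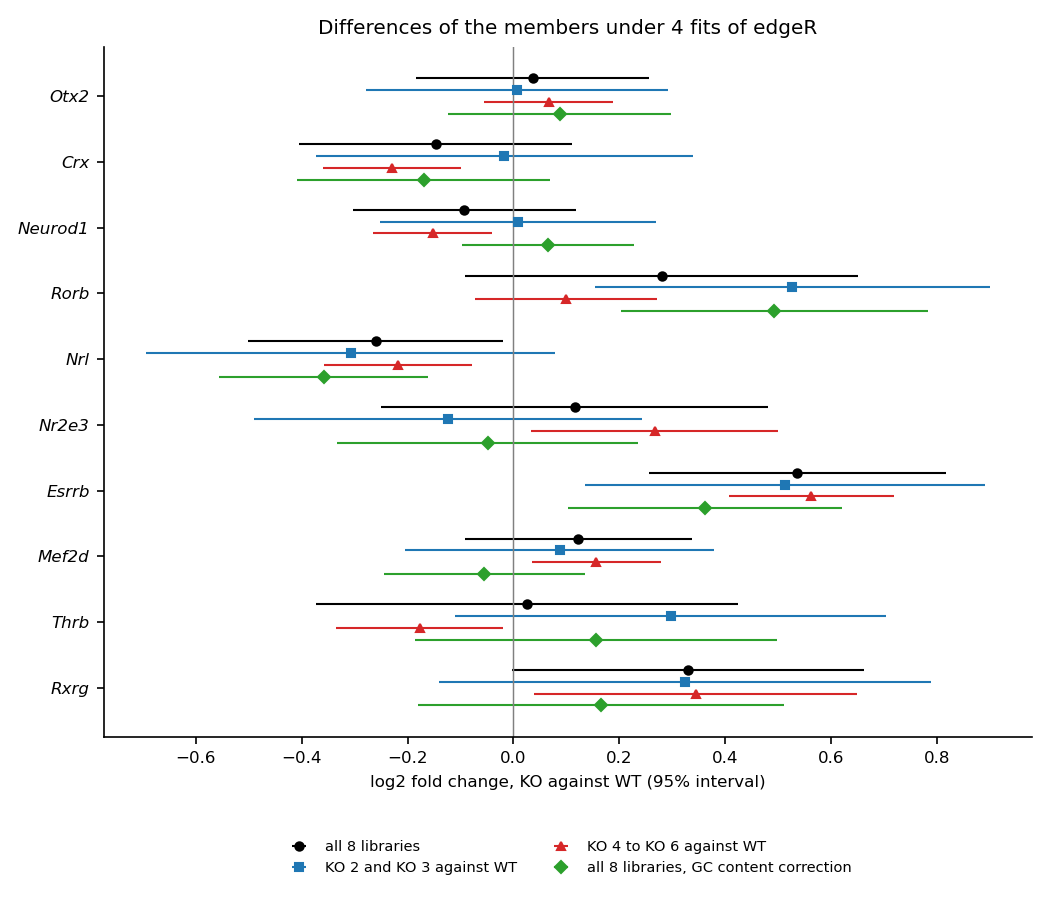
log2 fold change (horizontal axis, libraries labelled KO against WT) with its 95% interval for the 10 genes in 4 edgeR fits, which use all libraries (black), KO 2 and KO 3 (blue), KO 4 to KO 6 (red) and all libraries with GC correction (green). The 4 values of Esrrb lie between 0.36 and 0.56 and those of Nrl between -0.36 and -0.22, while Nr2e3, Neurod1, Mef2d and Thrb have values on both sides of 0.

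Within a library, the ratio of one gene to another does not depend on the scaling of libraries. The ratio of Esrrb to Nrl CPM was 0.252, 0.210 and 0.282 in WT 1 to WT 3 and 0.452, 0.415, 0.427, 0.446 and 0.399 in KO 2 to KO 6. The ratio of Nr2e3 to Nrl was 0.308 to 0.342 in WT and 0.361 to 0.504 in the libraries labelled KO. For both ratios the lowest library labelled KO exceeded the highest WT library. For Esrrb to Nrl this was fixed in advance, because each library labelled KO lay above every WT library in Esrrb and below every one in Nrl. The ratio of Rorb to Nrl, 0.172 to 0.238 in WT and 0.229 to 0.374 in the libraries labelled KO, overlapped between the groups. The ratio of Crx to Nrl was 0.645 to 0.654 in WT. It was 0.783 for KO 2, 0.808 for KO 3 and 0.636 to 0.655 for KO 4 to KO 6, so it set KO 2 and KO 3 apart from the rest. These ratios were chosen after the values were seen and carry no test, and Nrl has a lower GC content (51.7%) than Esrrb and Nr2e3 (53.9%).

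**Figure D3:**
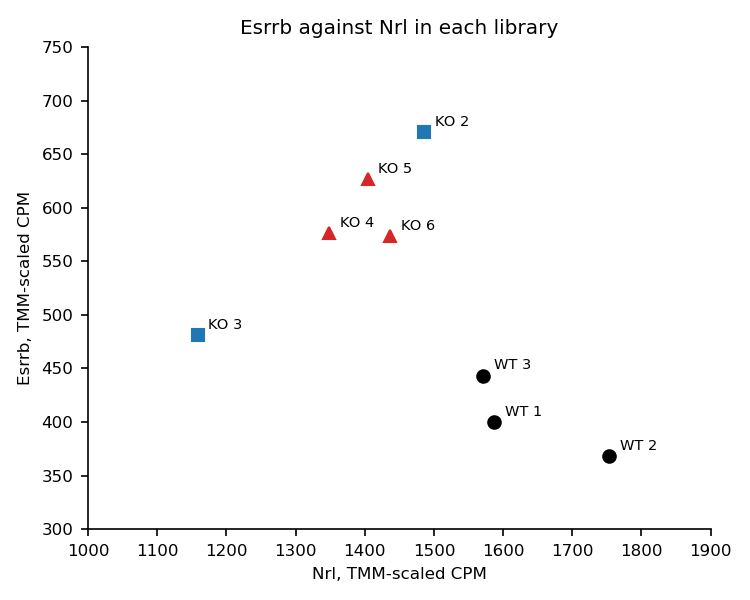
TMM-scaled CPM of Nrl (horizontal axis, not from 0) and Esrrb (vertical axis, not from 0) in each library, with WT as black circles, KO 2 and KO 3 as blue squares and KO 4 to KO 6 as red triangles. The WT libraries lie at the lower right and the libraries labelled KO at the upper left, KO 3 lowest in Nrl and KO 2 highest in Esrrb.

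Mef2d, a MADS-box factor that acts at enhancers with CRX in photoreceptors and is expressed in many cell types, was at 471, 464 and 441 CPM in WT and at 524, 450, 487, 522 and 514 CPM in KO 2 to KO 6. All libraries labelled KO but KO 3 were above the WT range. The log2 fold change was 0.12 (SE 0.10, edgeR adjusted p 0.439). It was 0.09 for KO 2 and KO 3 against WT (edgeR adjusted p 0.749) and 0.16 for KO 4 to KO 6, where it was called (edgeR adjusted p 0.0388). It has the highest GC content of the set, 55.0%, and the GC correction turned the sign, to -0.05 (edgeR adjusted p 0.733). An antisense gene overlaps 8.87% of its exon bases.

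Of the cone regulators, Thrb encodes the thyroid hormone receptor whose cone isoform sets the medium-wavelength opsin. The counts are per gene and do not separate the isoforms. It was at 90.8, 88.6 and 105 CPM in WT and at 144, 89.6, 84.7, 81.1 and 84.2 CPM in KO 2 to KO 6. KO 2 was the highest library and KO 4 to KO 6 the lowest 3. Its log2 fold change was 0.03 (SE 0.18, 95% interval -0.37 to 0.42, edgeR adjusted p 0.943), which joins 0.30 for KO 2 and KO 3 (edgeR adjusted p 0.396) with -0.18 for KO 4 to KO 6 (edgeR adjusted p 0.0662). With the GC correction Thrb was at 0.16 over all libraries (edgeR adjusted p 0.573). The sign for KO 4 to KO 6 then turned, to 0.02 (edgeR adjusted p 0.848), and KO 2 and KO 3 gave 0.34 (edgeR adjusted p 0.350).

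Rxrg, the retinoid receptor that partners with it and restrains the short-wavelength opsin, was the least abundant member. It was at 5.65, 7.19 and 6.08 CPM in WT and at 6.69, 9.13, 7.58, 8.33 and 7.97 CPM in KO 2 to KO 6. Of the libraries labelled KO, 4 were above the highest WT library and KO 2 was within the WT range. Its log2 fold change was 0.33 (SE 0.15, 95% interval -0.00 to 0.66), with an edgeR adjusted p of 0.186. It was 0.32 in KO 2 and KO 3 and 0.34 in KO 4 to KO 6 (edgeR adjusted p 0.415 and 0.0668), and 0.17 over all libraries after the GC correction.

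Over the 10 members, the groups did not overlap in 2, Esrrb and Nrl, where 20.9% of all tested genes did not overlap, 10.8% higher and 10.1% lower, so this count is near the background as well. The median log2 fold change of the members was 0.08, against 0.00 over all tested genes, with 7 members above 0 and 3 below. Per length of the longest transcript in GENCODE M21, the order of levels in WT was Crx (364 ± 20.4 CPM per kb, SD, n = 3), Nrl (329 ± 20.3), Nr2e3 (195 ± 24.3), Neurod1 (153 ± 2.65), Esrrb (93.9 ± 8.75), Mef2d (84.9 ± 2.86), Otx2 (69.2 ± 3.00), Rorb (35.9 ± 3.95), Thrb (15.3 ± 1.47) and Rxrg (2.99 ± 0.378). Crx and Nrl overlapped in WT, as did Esrrb and Mef2d, and the other neighbours did not. The mean levels of the libraries labelled KO kept this order. There Crx no longer overlapped Nrl, and Nrl overlapped Nr2e3. Esrrb, at 136 ± 16.5 CPM per kb (SD, n = 5), then overlapped Neurod1 above it (144 ± 9.65) and no longer overlapped Mef2d below it (92.5 ± 5.81).

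Other regulators of retinal fate were taken as a list of 40 genes, all tested. Of these 1 rose, 0 fell and 39 were not called, where 4.74% of all genes rose and 2.84% fell, with a median log2 fold change of 0.09. This is no more than the background. The gene called was Notch1, the receptor that keeps progenitors and Muller glia from becoming photoreceptors, at 20.4 to 28.5 CPM in WT, 30.6 CPM in KO 2, 35.2 CPM in KO 3 and 56.0 to 66.2 CPM in KO 4 to KO 6. Its log2 fold change was 1.11 (SE 0.26, edgeR adjusted p 0.0334), 0.51 for KO 2 and KO 3 (edgeR adjusted p 0.165) and 1.42 for KO 4 to KO 6 (edgeR adjusted p 3.46e-06). The other fits called different numbers of this list. KO 2 and KO 3 against WT gave 0 calls, and KO 4 to KO 6 against WT gave 15 higher and 12 lower (22.3% and 20.5% of all genes). All libraries without KO 3 gave 11 higher, where 12.2% of all genes were, and 0 lower, where 7.85% of all genes were.

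The relatives of the members were not called over all libraries. The nuclear receptors Rora (log2 fold change -0.10), Rxra (0.10), Rxrb (0.14), Thra (0.13), Esrra (0.03) and Esrrg (-0.07) had edgeR adjusted p of 0.267 to 0.871, and the difference between Esrrb and its paralogs was not tested. Mef2a (-0.13) and Mef2c (-0.20) had edgeR adjusted p of 0.655 and 0.374, and Neurod2 (0.43) and Neurod4 (-0.50) of 0.196 and 0.151. In KO 4 to KO 6 against WT, where 42.8% of all genes were called, Rxra (0.18), Thra (0.16) and Neurod2 (0.69) were called higher. Rora (-0.30), Esrrg (-0.27), Mef2a (-0.37), Mef2c (-0.34) and Neurod4 (-0.83) were called lower there, and Rxrb and Esrra were not called. After the GC correction over all libraries, the sign turned for Rora (0.14), Rxra (-0.11), Rxrb (-0.11), Thra (-0.12), Esrra (-0.02), Esrrg (0.11), Mef2a (0.07) and Mef2c (0.05), so no direction is read for these 8, and none was called. In KO 2 and KO 3 against WT none of these 10 genes was called, with edgeR adjusted p of 0.407 to 0.994. There Neurod2 was at -0.03 and Neurod4 at -0.11. Nr1d1, a clock repressor that works with NR2E3, was higher in every library labelled KO (log2 fold change 0.53), with an edgeR adjusted p of 0.0587, and was called in KO 4 to KO 6 against WT (0.70, edgeR adjusted p 1.52e-05). In KO 2 and KO 3 against WT it was at 0.24 and not called (edgeR adjusted p 0.253). Samd11, a polycomb-linked partner of CRX, was lower in every library labelled KO (-0.44), with an edgeR adjusted p of 0.112. It was called lower after the GC correction (-0.67, edgeR adjusted p 0.0137) and in KO 4 to KO 6 against WT (-0.26, edgeR adjusted p 0.00332), and was at -0.73 in KO 2 and KO 3 (edgeR adjusted p 0.0795). Its relative Samd7 was at -0.07 over all libraries and was called lower in KO 4 to KO 6 (-0.25, edgeR adjusted p 0.0144). In KO 2 and KO 3 Samd7 went the other way (0.18, edgeR adjusted p 0.529). These 13 were chosen as relatives or partners of the members after their values were seen.

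The genes that these factors drive were read from a list of 20 rod and a list of 14 cone genes. Of the rod genes 1 rose and 1 fell and 18 were not called, counts near the background of 4.74% higher and 2.84% lower, and the median log2 fold change was 0.05. Sag, rod arrestin, was at 2100 to 2774 CPM in WT and at 3194 to 5079 CPM in the libraries labelled KO, a log2 fold change of 0.87 (SE 0.16, edgeR adjusted p 0.0169). Gngt1, the gamma subunit of rod transducin, was at 1343 to 1936 CPM in WT and at 644 to 1096 CPM in the libraries labelled KO, a log2 fold change of -0.90 (SE 0.18, edgeR adjusted p 0.0222), which was -0.52 after the GC correction (edgeR adjusted p 0.0292). Neither group overlapped the other in these genes, and neither gene was called in KO 2 and KO 3 against WT (edgeR adjusted p 0.165 and 0.158). In KO 4 to KO 6 against WT Sag was at 1.03 and Gngt1 at -1.12, both called, among 9 higher and 6 lower calls of the rod list, where 22.3% and 20.5% of all genes were called. In the rod list the GC correction gave 1 higher and 4 lower calls, where 4.24% and 2.80% of all genes were called. Without KO 3 there were 7 higher and 1 lower, where 12.2% and 7.85% of all genes were called.

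Of the cone genes 1 rose, 4 fell and 9 were not called, with a median log2 fold change of -0.18. The log2 fold change was above 0 for 7 of them and below 0 for 7. Their summed level was 2507 to 2942 CPM in WT and 2274 to 3099 CPM in the libraries labelled KO, so the groups overlapped in it. Pde6h, the inhibitory subunit of the cone phosphodiesterase, fell with a log2 fold change of -0.74 (SE 0.10, edgeR adjusted p 0.00478), and Pde6c, its catalytic subunit, rose by 0.51 (SE 0.11, edgeR adjusted p 0.0251). Gngt2 (-0.60) and Gnat2 (-0.47), subunits of cone transducin, and the channel subunit Kcne2 (-0.50) also fell, with edgeR adjusted p of 0.0254, 0.0318 and 0.0414. In KO 2 and KO 3 against WT, 2 cone genes were called lower and 0 higher, where 0.267% and 0.624% of all genes were. KO 4 to KO 6 against WT gave 7 lower and 4 higher calls, where 20.5% and 22.3% of all genes were. Over all libraries the shares were 2.84% lower and 4.74% higher. The genes called in KO 2 and KO 3 against WT were Pde6h (-0.77, edgeR adjusted p 0.0164) and Arr3, cone arrestin (-1.33, edgeR adjusted p 0.0293), which was at -0.72 over all libraries (edgeR adjusted p 0.103). After the GC correction over all libraries, Kcne2 was not called (edgeR adjusted p 0.0534). Opn1mw, the medium-wavelength opsin that the Thrb receptor controls, had a log2 fold change of 0.05 (edgeR adjusted p 0.825), and Opn1sw, the short-wavelength opsin, of -0.58 (edgeR adjusted p 0.0759).

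**Figure D4:**
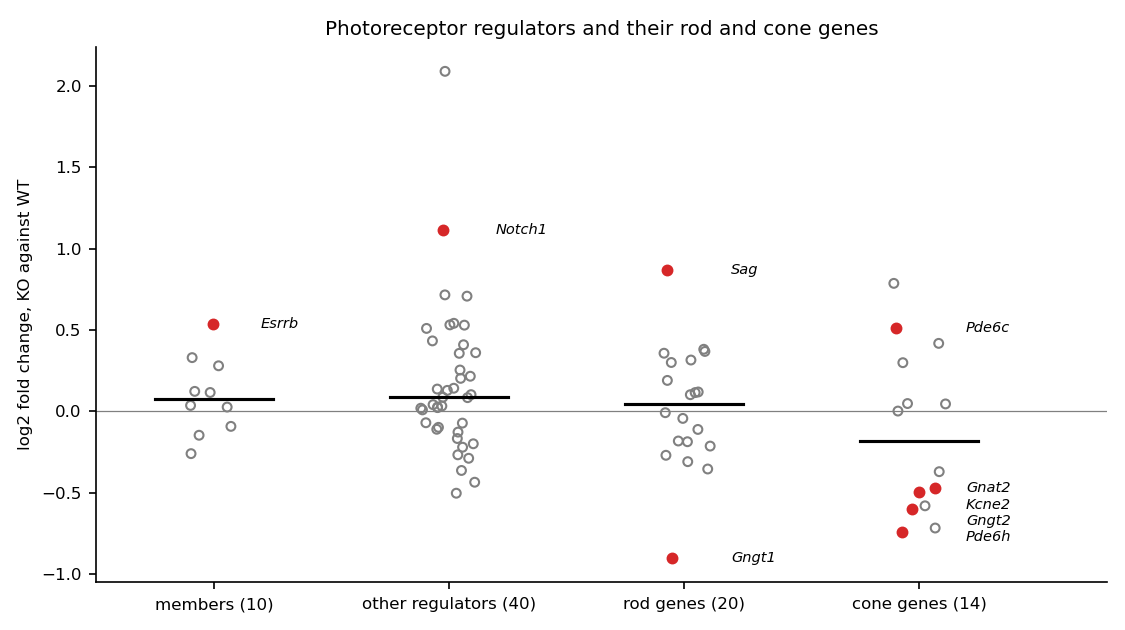
log2 fold change (vertical axis, libraries labelled KO against WT) of each gene of the 10 members, 40 other regulators, 20 rod genes and 14 cone genes. Filled red points passed an edgeR adjusted p of 0.05 and are named, open points did not, and the black lines are the medians, 0.08, 0.09, 0.05 and -0.18.

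Some members are expressed beyond photoreceptors, and marker lists of other cells were read beside them. The summed level of 8 Muller glia markers was 3678 to 3878 CPM in WT and 3976 to 5580 CPM in the libraries labelled KO, and that of 8 microglia markers was 31.1 to 35.3 CPM and 39.3 to 54.9 CPM. In both sums, as in Esrrb, the lowest library labelled KO exceeded the highest WT library, and their part in the difference of Esrrb was not tested. Of the Muller markers 3 of 8 rose and of the microglia markers 2 of 8, where 4.74% of all genes did, and none of either fell. After the GC correction 3 Muller markers and 0 microglia markers were called, with edgeR adjusted p of 0.0583 and 0.0989 for the microglia genes Csf1r and Tmem119. In KO 2 and KO 3 against WT 0 markers of either list were called, where 0.891% of all genes were. KO 4 to KO 6 against WT gave 6 Muller and 5 microglia markers higher and 0 lower, where 22.3% and 20.5% of all genes were. The sums overlapped between the groups for 12 bipolar markers (1364 to 1431 CPM in WT, 1284 to 1565 CPM in KO), 11 tested amacrine and horizontal markers (1124 to 1182 and 1068 to 1380 CPM) and 7 ganglion cell markers (924 to 1007 and 890 to 1178 CPM). They also overlapped for 9 pigment epithelium markers (67.3 to 85.7 and 61.9 to 88.5 CPM) and 14 lens markers (29.1 to 1715 and 2.004 to 51288 CPM). In these lists Gpr179 of the bipolar list rose (log2 fold change 0.48, edgeR adjusted p 0.0443), Calb1 of the amacrine and horizontal list fell (-0.49, edgeR adjusted p 0.0454), both losing their call after the GC correction (edgeR adjusted p 0.105 and 0.666), and none of the ganglion, pigment epithelium and lens markers was called over all libraries. Lens genes were at 0 in some libraries for 6 of 14 markers, and no other marker but Ptf1a was at 0 in any library.

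The pattern of Esrrb over the 8 libraries was most like that of Kcnj10, a potassium channel gene of Muller glia, Synpo2 and Chd4, out of 10590 genes compared. Likeness was measured as the root mean square difference of log2 CPM, each gene centred on its own mean. It was 0.04, 0.05 and 0.06 for these genes, against a median of 0.32 over the genes compared. As the closest genes were picked, values below the median follow from the choice, here and for Nrl. The pattern of Nrl was most like those of Nxnl1, a gene for a rod-derived cone survival factor, Rhbdl3 and Rgs3, with differences of 0.05, 0.06 and 0.06 and a median of 0.25. Nxnl1 was lower in every library labelled KO, with a log2 fold change of -0.21 and an edgeR adjusted p of 0.187. It was called after the GC correction (-0.31, edgeR adjusted p 0.0483) and in KO 4 to KO 6 against WT (-0.18, edgeR adjusted p 0.02), and was at -0.25 in KO 2 and KO 3 (edgeR adjusted p 0.324).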

How the data were processed

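Total RNA of mouse retina was sequenced in 8 libraries. The authors deposited 1 table of counts per gene. The submitters' processing notes name Trim Galore, Salmon 1.10.2, DESeq2 and build GRCm38 without saying what each was used for. The deposited values are whole numbers and are treated as rounded estimated counts, since Salmon is named. The annotation release and strand setting are not given in the sources used here. No gene has fewer than 16 counts in total. Each library column was matched to its sample by title.

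Counts were filtered with filterByExpr, scaled by TMM and compared with the quasi-likelihood test of edgeR 4.0.16 in R 4.3.3 on all 8 libraries, with Benjamini-Hochberg adjustment over 20167 genes, with calls at an adjusted p below 0.05. SEs and 95% intervals were derived from each gene's F statistic. Each library was treated as a separate mouse, and its title gives a group and a replicate number. No pair of libraries in a group agreed within sampling noise (chi-square per degree of freedom 5.85 or more). GC content and length are those of the longest GENCODE M21 transcript, and the GC correction is a lowess fit per library (span 0.3) used as an offset over 18028 genes. The steps were tested on simulated counts. Motifs were searched in RefSeq windows. The alternatives used DESeq2 1.42.0 and limma 3.58.1, other scalings and filters, and fits without libraries.

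The members, the 10 gene lists, the named genes and the tests were chosen with earlier results of these data known. Named were the members, Kcnv2, the called genes of the regulator, rod and cone lists, up to 2 called genes of each other list, and the 3 genes most like Nrl and each called member. Of the Muller glia list these were Sox9 (log2 fold change 0.62) and Kcnj10 (0.54), and of the microglia list Tmem119 (0.94) and Csf1r (0.69), the latter pair not called after the GC correction (adjusted p 0.0989 and 0.0583). Genes outside this rule are said to be so or were named to give the state of a pathway. Intervals include the spread between libraries. The detection floor covers counting error only, and its 3 counts equal 0.119 to 0.169 CPM.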

Additional observations from a re-analysis of the deposited data

Results flagged for a closer look

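Among the 5 libraries labelled KO, 21 values were examined (the members, Kcnv2 and the summed levels of the lists, on the log2 scale) for a library whose gap to its neighbour exceeded 0.71 of their whole range. The limit was passed by 4, and in each case the library was KO 2. For independent values chance gives about 1.05. The values examined come from the same 5 libraries and are not independent, so no conclusion is drawn from this count. Crx was at a log2 CPM of 10.2 in KO 2 and at most 9.87 in the others, a gap of 0.789 of the range. Thrb was at 7.17 and at most 6.49, a gap of 0.825. The summed level of the 40 other regulators had a gap of 0.753, and that of the ganglion cell markers one of 0.768. The cause was not tested.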

How the results depend on the processing

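Over 30 alternatives for each of the 10 members, 243 of 300 values kept their direction and their side of the threshold. Crx, Rorb, Nrl, Esrrb and Rxrg kept their direction in each alternative run. The call of Esrrb was lost in 17, among them the 6 fits without 1 library given in the report and 6 of the 10 fits without 2 libraries labelled KO. Over all 10 of these last fits its log2 fold change was 0.44 to 0.63. Direction turned for Thrb with library size alone (-0.021), with limma voom (-0.14), without KO 2 and KO 3 (-0.18), KO 4 (-0.16), KO 5 (-0.13) or KO 6 (-0.15), and for Otx2 without KO 2 and KO 4 (-0.0091), KO 5 (-0.0029) or KO 6 (-0.036). Leaving out 1 library gave -0.16 to 0.11 for Thrb and -0.0003 to 0.10 for Otx2. It turned for Nr2e3 without KO 5 and KO 6 (-0.076), without KO 4 to KO 6 (-0.12) and with GC correction (-0.048), for Neurod1 without KO 4 to KO 6 (0.0087) and with GC correction (0.065), and for Mef2d with GC correction (-0.055). GC correction within subsets was added after seeing the data. It gave 0.056 for Neurod1 and -0.17 for Nr2e3 in KO 2 and KO 3, and 0.074 for Neurod1 and -0.12 for Mef2d in KO 4 to KO 6.

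Over all libraries 1529 genes, 1 member and 8 of the 74 genes of the regulator, rod and cone lists were called. The counts in the same order were 3066, 1 and 23 with DESeq2, 8248, 5 and 46 with limma voom, 1268, 2 and 11 with GC correction, 180, 0 and 2 without KO 4 to KO 6, and 163, 0 and 2 (KO 2 and KO 3) and 5645, 4 and 41 (KO 4 to KO 6) with both. With library size alone the split of higher and lower calls was 566 and 787, against 956 and 573. Without 1 library the counts ranged from 132 to 3992 genes, 0 to 1 members and 1 to 26 list genes. Without 2 libraries labelled KO they were 8416, 5 and 53 (KO 2 and KO 3), 399, 0 and 3 (KO 2 and KO 4), 496, 0 and 4 (KO 2 and KO 5), 645, 0 and 6 (KO 2 and KO 6), 2540, 1 and 17 (KO 3 and KO 4), 2225, 1 and 16 (KO 3 and KO 5), 2593, 1 and 16 (KO 3 and KO 6), 118, 0 and 1 (KO 4 and KO 5), 191, 0 and 1 (KO 4 and KO 6) and 203, 0 and 1 (KO 5 and KO 6). The causes of these differences were not tested.

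Replicate numbers 2 and 3 occur in both groups, with no statement in the sources that they mark a pair. The replicate block over these 4 libraries called 52 genes, 0 members and 1 list gene, against 14, 0 and 0 for the same libraries with no block. Under the block Otx2 was at -0.033 and Nr2e3 at -0.17, with no block at -0.022 and -0.17, and Esrrb was at 0.49 (edgeR adjusted p 0.559). Deviations of same-numbered libraries had a correlation of -0.19, and the crossed pairing called 527 genes, 0 members and 6 list genes.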
